A study of Arabidopsis thaliana with 12 samples.

Results

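WRKY transcription factors are a plant family named after 4 amino acids, W, R, K and Y, that open the signature of their DNA-binding domain. The genes described here are 53 WRKY genes of Arabidopsis thaliana, chosen by their locus identifiers, out of 33602 genes that the authors tested. The annotation names 72 WRKY genes in all, so 19 genes of the family lie outside the list. WRKY proteins bind the W-box, a short promoter element, and switch target genes on or off in immunity, wounding, senescence, nutrient shortage and oxidative stress. Many WRKY genes carry W-boxes in their own promoters and are controlled by other family members. Several WRKY proteins are phosphorylated by mitogen-activated protein (MAP) kinases and pair with VQ proteins, small partners that share a short motif.

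RNA depleted of ribosomal RNA was sequenced from roots of seedlings 6 days after germination. Wild-type Col-0 plants (WT) and plants labelled trm4b-1, a mutant of an RNA cytosine methyltransferase gene also in Col-0, were kept on plates of 1/2 MS medium. The medium held either no paraquat (control) or paraquat, a superoxide-forming herbicide, at 0.01 uM. The 12 samples formed 4 groups of 3 biological replicates. Only the authors' tables of 5 comparisons were used, each listing genes with an adjusted p under 0.1, so values per sample, depth and expression levels are unknown. "Rose" and "fell" below are used where the authors' deposited table gives an adjusted p below 0.05. Standard errors (±) were worked back from each fold change and its p. The base of the fold changes is not named and was taken as log2, which limma uses. In whole roots a change in a cell type's share and a change in RNA per cell cannot be told apart, and the tables give no levels by which root markers could show the labelled tissue. In the libraries labelled trm4b-1 the targeted RNA, TRM4B, was not lower but higher, at 2.89 ± 0.08 on control medium and 3.90 ± 0.08 on paraquat in the authors' deposited table, so every genotype direction below is that of libraries carrying this label.

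The family signature was looked for in the coding sequence of each member, because its number of copies sets group I apart from the other groups. Group I proteins carry the WRKY domain in duplicate, while groups II (IIa to IIe) and III carry it once and differ in their zinc finger. All 9 members placed in group I held 2 stretches encoding the signature, and the other 44 members held 1 each. The stretches of the genes that the comparisons turn on are printed 5′ to 3′ from the RefSeq genome TAIR10.1, with the 12 bases that encode W, R, K and Y in capitals.
WRKY25, first copy (chr2:12904361-12904381, minus strand): TGGAGAAAATACggtcagaaa
WRKY25, second copy (chr2:12903792-12903812, minus strand): TGGAGGAAATATggtcaaaaa
WRKY33, first copy (chr2:16109358-16109378, plus strand): TGGAGAAAGTACggacaaaaa
WRKY33, second copy (chr2:16109982-16110002, plus strand): TGGAGAAAATACggccagaaa
WRKY48 (chr5:20091645-20091665, plus strand): TGGAGAAAATACggccaaaaa
WRKY51 (chr5:25908864-25908884, plus strand): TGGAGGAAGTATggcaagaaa
WRKY46 (chr2:19044313-19044333, minus strand): TGGAGAAAATATgggcaaaaa
Counted from 1 at the 5′ end and read from WRKY48 to WRKY51, the stretches of these 2 group IIc genes differed by A6G, A9G, C12T, C16A and A18G. Of these 5 substitutions, C16A alone changes the encoded residue. WRKY51 and WRKY50 are known for this variant of the signature.

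The promoters of 4 of these genes are shown because their RNA differed with paraquat or between the genotypes and because the W-box is the element the family binds. Each is the stretch of 300 bases before the RefSeq gene start in TAIR10.1, with matches to the W-box core TTGAC on either strand (read as GTCAA on the other) in capitals.
WRKY25 promoter (chr2:12905339-12905638, minus strand): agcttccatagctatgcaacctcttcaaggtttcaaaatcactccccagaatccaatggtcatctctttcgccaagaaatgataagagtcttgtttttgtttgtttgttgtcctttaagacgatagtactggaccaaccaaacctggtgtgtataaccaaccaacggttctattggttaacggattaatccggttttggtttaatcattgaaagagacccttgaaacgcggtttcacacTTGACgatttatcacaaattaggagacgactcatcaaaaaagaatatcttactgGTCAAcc
WRKY33 promoter (chr2:16107935-16108234, plus strand): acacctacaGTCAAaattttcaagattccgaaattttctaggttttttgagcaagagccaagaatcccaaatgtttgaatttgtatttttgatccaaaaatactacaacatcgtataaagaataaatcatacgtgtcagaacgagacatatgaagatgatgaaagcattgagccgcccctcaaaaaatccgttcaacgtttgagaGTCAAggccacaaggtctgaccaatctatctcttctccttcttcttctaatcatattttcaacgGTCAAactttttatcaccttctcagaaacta
WRKY48 promoter (chr5:20090348-20090647, plus strand): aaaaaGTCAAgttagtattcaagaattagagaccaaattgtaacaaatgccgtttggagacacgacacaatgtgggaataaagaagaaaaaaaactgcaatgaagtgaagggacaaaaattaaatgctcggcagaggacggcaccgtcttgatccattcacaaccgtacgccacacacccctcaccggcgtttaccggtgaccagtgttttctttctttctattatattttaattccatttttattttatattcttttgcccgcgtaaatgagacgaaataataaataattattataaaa
WRKY51 promoter (chr5:25907947-25908246, plus strand): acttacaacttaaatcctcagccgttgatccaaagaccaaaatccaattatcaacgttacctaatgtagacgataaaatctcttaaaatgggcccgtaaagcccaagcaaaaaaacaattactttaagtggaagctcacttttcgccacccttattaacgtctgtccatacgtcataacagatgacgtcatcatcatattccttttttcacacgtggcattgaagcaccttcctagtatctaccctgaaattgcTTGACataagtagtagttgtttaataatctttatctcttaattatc
The WRKY33 promoter held 3 core matches, that of WRKY25 held 2, and those of WRKY48 and WRKY51 held 1 each. The longer forms TTGACC and TTGACT, which contain the core, matched 3 times for WRKY33, once for WRKY25 and WRKY48, and not at all for WRKY51 in this window. The promoter of WRKY46, which is not printed, held 1 core match and neither longer form. Over the list, 33 of 53 members (62.3%) had at least 1 core match, against 50.4% of 27443 nuclear protein-coding promoters of the same length. Members with at least 3 matches were WRKY11, WRKY12, WRKY29, WRKY30, WRKY33 and WRKY45, or 11.3% of the list against 5.07% of all promoters. Among the 29 members that changed with paraquat in either genotype 58.6% had a match, and among the other 24 it was 66.7%. A match describes letters in a window and does not show that a factor binds there.

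**Figure D1:**
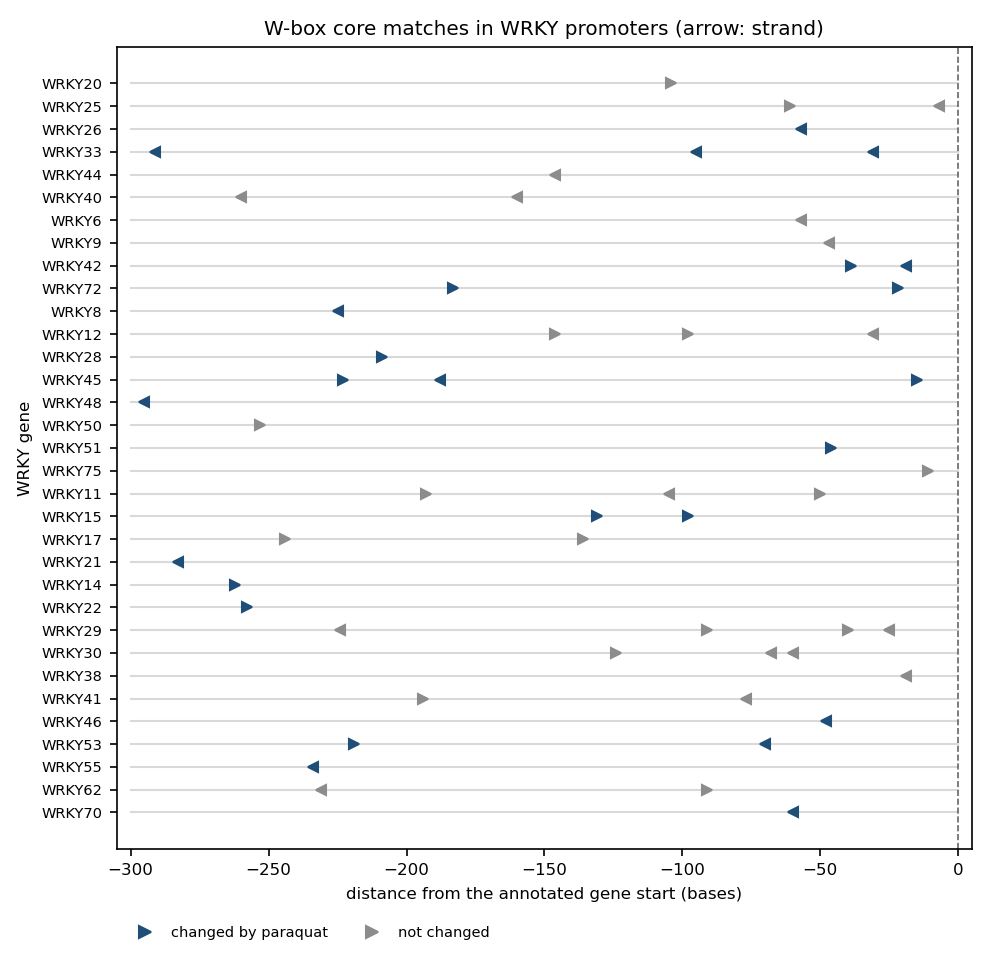
Matches to the W-box core TTGAC in the 300 bases before the annotated gene start (x axis, bases) for the 33 WRKY genes with a match (y axis). Arrowheads point right for the gene's own strand and left for the other strand, and blue marks genes that changed with paraquat in either genotype. WRKY29 had the most matches, 4.

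In WT roots paraquat moved many WRKY genes, in both directions. Of 53 members 26 changed, 15 higher and 11 lower, which is 49.1% of the list, while 17.0% of all genes tested changed in this comparison (7.99% higher and 9.01% lower). No filter on low values is stated for the tested genes, which may include genes hardly expressed in roots, so the background share may be low. Among the 19 WRKY genes outside the list 4 changed (21.1%), and over the whole family of 72 it was 30 (41.7%). The 53 members were chosen with earlier results of these data known, so their share is not independent of those results. Among the 53 members, WRKY55 and WRKY46 of group III had the largest rises, about 10-fold, and WRKY13 and WRKY54 had the largest falls. Of 23 photosynthesis genes that mark shoot tissue, 18 fell, none rose and 4 were not listed in the authors' deposited table for the same comparison, with changes from -4.75 to -0.65. Whether shoot tissue had a part in the WRKY values was not tested.

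Group I holds regulators of defence and heat tolerance. In WT 1 of its 9 members rose and 3 fell (44.4% changed, against 17.0% of all genes tested). WRKY33 (AT2G38470), which drives camalexin synthesis and resistance to necrotrophic fungi, rose by 0.71 ± 0.11 in the authors' deposited table (adjusted p = 0.000318). Its relative WRKY26, which acts with WRKY25 and WRKY33 in heat tolerance, fell by 0.89 ± 0.12 in the authors' deposited table (adjusted p = 9.01e-05). WRKY3 and WRKY4, related genes of defence against necrotrophs, had -0.64 ± 0.11 and -0.38 ± 0.08 in the authors' deposited table. Within this group the heat and defence genes thus did not move one way. WRKY25 had 0.30 ± 0.11 in the authors' deposited table, with an adjusted p of 0.0789. The other members of group I, namely WRKY1, WRKY2, WRKY20 and WRKY44 (TTG2, a regulator of trichome and seed coat development), were not listed in WT, so their p exceeded 0.0216, the largest listed.

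Group IIa holds WRKY18, WRKY40 and WRKY60, which bind one another and act in defence and abscisic acid signalling. WRKY60 rose by 0.51 ± 0.12 in the authors' deposited table for WT (adjusted p = 0.00894). WRKY18 and WRKY40 were listed in none of the 5 tables, so a rise of the trio was not seen. In group IIb, WRKY72, a gene of basal immunity, and WRKY31 rose by 0.58 ± 0.08 and 0.46 ± 0.10 in the authors' deposited table. WRKY42, a repressor of the phosphate exporter gene PHO1, had -0.43 ± 0.14 in the authors' deposited table (adjusted p = 0.049). PHO1 itself was not listed in any table.

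Group IIc, with 12 members, had 5 higher and 2 lower in WT (58.3% changed, against 17.0% of all genes tested). Across the groups this share ran from 33.3% in group IIa to 66.7% in group IIe. WRKY51 (AT5G64810), which mediates repression of jasmonate responses by salicylate, rose by 2.35 ± 0.25 in the authors' deposited table, which is 5.10-fold (adjusted p = 1.19e-05). WRKY50, its closest partner in that role, was listed in no table. WRKY28, an activator of salicylate synthesis, rose by 1.47 ± 0.39 in the authors' deposited table (adjusted p = 0.0149). The rise of WRKY48 (AT5G49520), a negative regulator of basal defence against bacteria, was 1.25 ± 0.14 in the authors' deposited table (adjusted p = 2.06e-05). WRKY8, a gene of defence and salt tolerance, had 0.97 ± 0.24, and WRKY23, an auxin-responsive gene of root development, 0.66 ± 0.14 in the authors' deposited table. Both rises passed the threshold. The largest fall among the 53 members was that of WRKY13, a gene of stem lignification, at -2.32 ± 0.57 in the authors' deposited table (adjusted p = 0.00937), with the widest error of all changed members. WRKY57, a gene of drought tolerance and senescence, fell by 0.54 ± 0.12 in the authors' deposited table.

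In WT the changes ran from -0.43 to 0.43 in group IId and from -0.93 to 0.90 in group IIe. WRKY15, a regulator of growth under osmotic stress and of mitochondrial stress signalling, rose by 0.35 ± 0.11 in the authors' deposited table, and WRKY21 by 0.43 ± 0.14. WRKY7, a calmodulin-binding repressor of defence, fell by 0.43 ± 0.12 in the authors' deposited table. Its relatives WRKY11 and WRKY17 were not listed. In group IIe, WRKY22, a gene downstream of the flagellin receptor cascade, rose by 0.90 ± 0.22 in the authors' deposited table (adjusted p = 0.00916). Its partner in that cascade, WRKY29, was not listed in WT. WRKY69 fell by 0.93 ± 0.18, WRKY65 by 0.38 ± 0.12 and WRKY14 by 0.37 ± 0.09 in the authors' deposited table.

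Group III held the largest rises of the list, and a pair of neighbouring genes moved apart. WRKY55 (AT2G40740), a gene of leaf senescence, rose by 3.37 ± 0.54 in the authors' deposited table, which is 10.3-fold (adjusted p = 0.00038). WRKY54 (AT2G40750), a repressor of senescence that acts with WRKY70, fell by 1.49 ± 0.23 in the authors' deposited table, which is 2.81-fold (adjusted p = 0.000282). In the deposited TAIR10 coordinates WRKY55 lies on chromosome 2 from 16997177 to 16999277 on the plus strand and WRKY54 from 17000454 to 17002468 on the minus strand, so that their 3′ ends face each other. WRKY46 (AT2G46400), a gene of salicylate synthesis and lateral root growth, rose by 3.27 ± 0.41 in the authors' deposited table, which is 9.65-fold (adjusted p = 5.25e-05). WRKY53, an activator of leaf senescence, rose by 0.84 ± 0.17 in the authors' deposited table (adjusted p = 0.00244). WRKY70 was not listed in WT, and its value rebuilt from the other deposited tables was -0.17 ± 0.16 (95% interval -0.50 to 0.17).

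**Figure D2:**
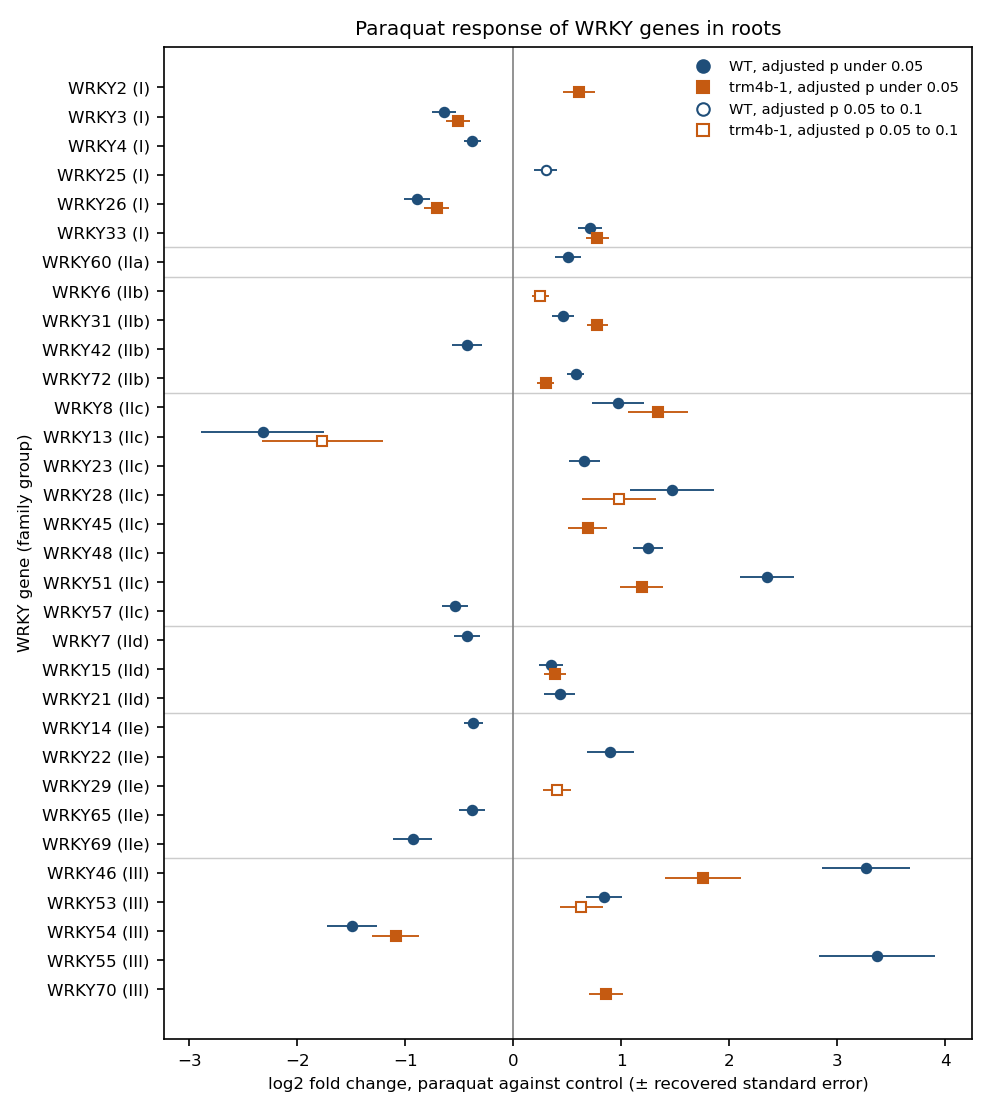
Log2 fold change with paraquat (x axis, bars: recovered standard error) of the 32 WRKY genes listed in either paraquat table (y axis, ordered by family group). Circles are WT and squares are trm4b-1, open symbols have an adjusted p from 0.05 to 0.1, and a missing symbol means that the gene was not listed. WRKY55 and WRKY46 lie farthest to the right in WT, at 3.37 and 3.27.

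In the libraries labelled trm4b-1, paraquat changed 13 of 53 members (24.5%), 10 higher and 3 lower, while 9.05% of all genes tested changed (4.72% higher and 4.33% lower). Outside the list 2 of 19 WRKY genes changed (10.5%), and over the whole family of 72 it was 15 (20.8%). Among the 53 members the largest rises were those of WRKY46, WRKY8 and WRKY51, of groups III and IIc. WRKY46 rose by 1.76 ± 0.35 in the authors' deposited table (adjusted p = 0.00365), WRKY8 by 1.34 ± 0.28 and WRKY51 by 1.19 ± 0.20. WRKY54 fell by 1.09 ± 0.22 in the authors' deposited table (adjusted p = 0.00431), beside WRKY26 (-0.71 ± 0.12) and WRKY3 (-0.51 ± 0.11). WRKY33 rose by 0.78 ± 0.11 in the authors' deposited table, close to its value in WT. WRKY31 rose by 0.78 ± 0.10, WRKY15 by 0.39 ± 0.10 and WRKY72 by 0.30 ± 0.08 in the authors' deposited table. Shoot markers had 1 of 23 higher and 1 lower in this comparison.

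The remaining 3 rises, of WRKY70, WRKY45 and WRKY2, were called in trm4b-1 and not in WT. WRKY70 (AT3G56400), a node between salicylate and jasmonate signalling, rose by 0.86 ± 0.16 in the authors' deposited table (adjusted p = 0.00269). WRKY45, an activator of the phosphate transporter gene PHT1;1, rose by 0.69 ± 0.18 in the authors' deposited table (adjusted p = 0.02), and PHT1;1 was not listed in any table. WRKY2, a gene of pollen development and abscisic acid response, rose by 0.61 ± 0.15 in the authors' deposited table (adjusted p = 0.0177). WRKY13, WRKY28, WRKY53, WRKY29 and WRKY6 were listed without passing the threshold, at -1.77, 0.98, 0.63, 0.41 and 0.25 in the authors' deposited table. WRKY55 was not listed in trm4b-1, so its p there exceeded 0.0122.

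Across both paraquat comparisons 10 members changed in both genotypes, all in the same direction, 7 higher and 3 lower. They were 38.5% of the members called in WT and 76.9% of those called in trm4b-1. All 13 members listed in both tables had the same sign, and the absolute change was larger in WT for 9 of them and in trm4b-1 for 4. Over all genes tested 17.0% were called in WT and 9.05% in trm4b-1. The overlap, shared signs and sizes were not worked out over all genes, so they are not shown to be particular to the family. A gene called in one genotype alone is not thereby shown to respond differently, and the interaction tests that difference.

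Between the genotypes on control medium, 7 of 53 members changed (13.2%), 3 higher and 4 lower in the libraries labelled trm4b-1, while 2.03% of all genes tested changed (0.839% higher and 1.19% lower). None of the 19 WRKY genes outside the list changed, and over the whole family of 72 the share was 9.72%. WRKY25 (AT2G30250), which pairs with the VQ protein MKS1 and acts in tolerance to heat and oxidative stress, stood first, at 1.78 ± 0.11 in the authors' deposited table, or 3.43-fold (adjusted p = 5.33e-07). WRKY51 rose by 1.12 ± 0.27 in the authors' deposited table (adjusted p = 0.0449) and WRKY48 by 0.99 ± 0.14 (adjusted p = 0.00211). Among the falls, WRKY70 had -0.72 ± 0.16 (adjusted p = 0.0357) and WRKY45 -0.72 ± 0.17 (adjusted p = 0.0449) in the authors' deposited table. WRKY31 fell by 0.42 ± 0.10 and WRKY14 by 0.35 ± 0.09 in the authors' deposited table, and both lay close under the threshold (adjusted p = 0.0449 and 0.0493). Listed without passing it were WRKY21 and WRKY60, at 0.47 and 0.45, and WRKY29, WRKY42 and WRKY6, at -0.50, -0.47 and -0.31 in the authors' deposited table. Of the shoot markers 2 of 23 fell and none rose, and their part in these values was not tested.

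On paraquat WRKY25 was the 1 member that differed between the genotypes (1.89% of the list), while 0.143% of all genes tested changed (0.0714% higher and 0.0714% lower). Its difference was 1.59 ± 0.11 in the authors' deposited table, or 3.01-fold (adjusted p = 1.99e-06), and the rebuilt interaction was -0.19 ± 0.15 (95% interval -0.52 to 0.14). The gene has 5 exons on the minus strand of chromosome 2, between 12903236 and 12905198 in the deposited TAIR10 coordinates, 3.39 Mb from TRM4B on the same chromosome. Of the 5 protein-coding genes on either side of WRKY25, LAC3, a laccase gene, was listed in a genotype table, at -0.81 on control medium in the authors' deposited table, and the other 9 were listed in neither genotype table.

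**Figure D3:**
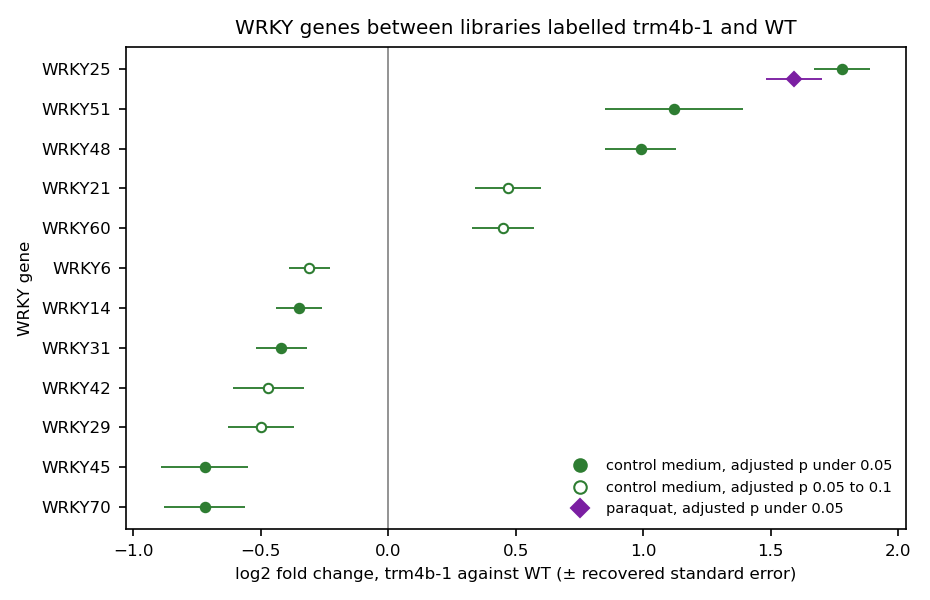
Log2 difference between libraries labelled trm4b-1 and WT (x axis, bars: recovered standard error) of the 12 WRKY genes listed on control medium (circles, open where the adjusted p was 0.05 to 0.1). The diamond is the single WRKY gene listed on paraquat, WRKY25, at 1.59 beside 1.78 on control medium.

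Whether the genotypes differed in their response to paraquat was read from the interaction, the change in trm4b-1 minus that in WT. WRKY48 was the 1 member that passed (1.89% of the list, with 0.318% of all genes tested, 0.152% higher and 0.167% lower), at -0.94 ± 0.19 in the authors' deposited table (adjusted p = 0.0448). Its response was 1.25 in WT, and the value rebuilt for trm4b-1 was 0.31 ± 0.12 (95% interval 0.05 to 0.57). The gene was already higher by 0.99 in trm4b-1 on control medium in the authors' deposited table, and on paraquat the rebuilt difference between the genotypes was 0.05 ± 0.12 (95% interval -0.21 to 0.31). WRKY70 was listed at 1.03 ± 0.23 in the authors' deposited table but did not pass (adjusted p = 0.0709, Storey q = 0.0427). Of the 23 shoot markers 3 were listed in the interaction, all with positive values, PSAD1 at 1.73, LHCB4.2 at 1.65 and RCA at 1.51 in the authors' deposited table, and none passed, while PSAD1 and RCA had a Storey q under 0.05. Their part in the WRKY values was not tested.

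For 5 members the listed contrasts fix the remaining ones, so that all 4 groups can be placed relative to WT control. WRKY25 stood at 0.30 in WT on paraquat, 1.78 in trm4b-1 on control medium and 1.89 in trm4b-1 on paraquat, so the genotypes were apart on both media. WRKY51 stood at 2.35, 1.12 and 2.31 in the same order, and WRKY48 at 1.25 in WT on paraquat and 0.99 in trm4b-1 on control medium. Both were thus lowest in WT control, and both genotypes met on paraquat within the errors given for the rebuilt contrasts (-0.04 ± 0.17 and 0.05 ± 0.12). WRKY31 stood at 0.46, -0.42 and 0.35, and WRKY70 at -0.17, -0.72 and 0.15, both lowest in trm4b-1 control. The comparisons share control samples, WT control between the WT paraquat and genotype contrasts and trm4b-1 control between the trm4b-1 paraquat and genotype contrasts, so these values are not independent of one another.

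**Figure D4:**
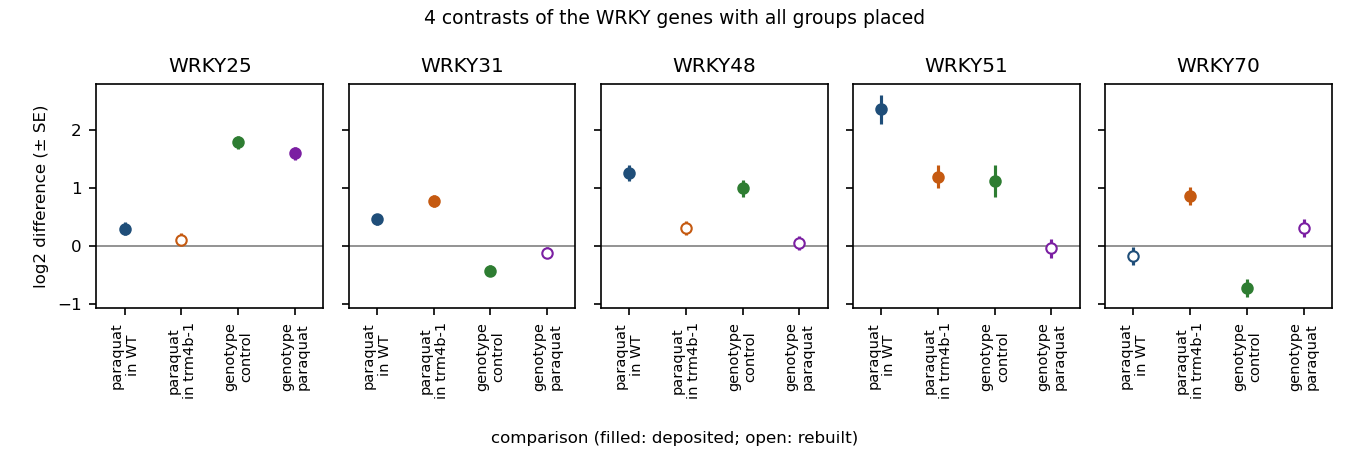
Log2 differences (y axis, bars: standard error) in 4 comparisons (x axis) of the 5 WRKY genes for which all contrasts are known, filled where deposited and open where rebuilt. WRKY25 is high in both genotype comparisons, at 1.78 and 1.59, while WRKY48 and WRKY51 are near 0 in the genotype comparison on paraquat.

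Interactions not listed were rebuilt for the 13 members present in both paraquat tables. Their intervals are not adjusted over all genes, and none of these interactions was listed, so none passed the adjusted threshold. Of the 13 intervals 9 held 0. WRKY51 had -1.16 ± 0.32 (95% interval -1.84 to -0.48) and WRKY46 -1.51 ± 0.54 (95% interval -2.66 to -0.36). WRKY72 had -0.28 ± 0.11 and WRKY31 0.31 ± 0.14, with intervals that just missed 0. For WRKY33 the interval of the difference ran from -0.26 to 0.40, and for WRKY15 from -0.28 to 0.35.

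**Figure D5:**
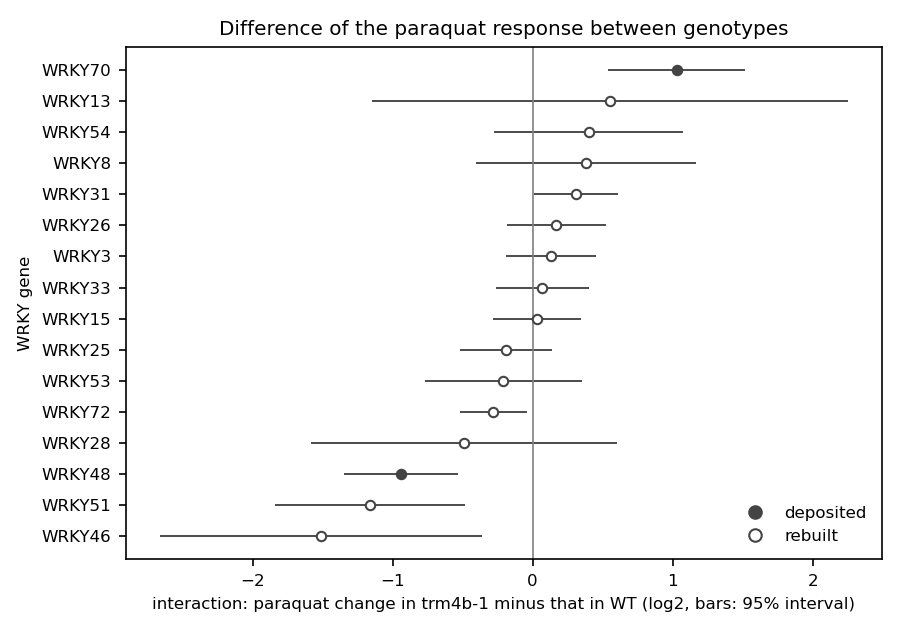
Interaction, the paraquat change in trm4b-1 minus that in WT (x axis, log2, bars: 95% interval), of 16 WRKY genes (y axis), filled where deposited and open where rebuilt. WRKY46, WRKY51 and WRKY48 lie lowest and WRKY70 highest, at 1.03.

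Genes that act with the WRKY family were read from the same tables. Their lists were chosen with earlier results of these data known, so the shares below are not independent of those results. Of 14 genes of MAP kinase cascades and their receptors, 2 rose and 2 fell in WT (28.6% changed, against 17.0% of all genes tested) and 1 rose in trm4b-1 (7.14% against 9.05%). MPK11, a kinase gene induced by flagellin, rose by 3.25 ± 0.36 in WT and 2.85 ± 0.35 in trm4b-1 in the authors' deposited table. FLS2, the flagellin receptor gene, had -0.96 ± 0.24, the kinase kinase gene MKK9 -0.63 ± 0.19 and the kinase gene MPK4 0.28 ± 0.08 in WT in the authors' deposited table. MPK3, MPK6, MKK4 and MKK5, whose products activate WRKY33 and its relatives, were listed in no table.

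Among 34 VQ protein genes, 5 rose and 3 fell in WT (23.5% changed, against 17.0% of all genes tested), and 6 rose and 1 fell in trm4b-1 (20.6% against 9.05%). SIB1, whose product activates WRKY33, rose by 2.33 ± 0.38 in WT and 1.83 ± 0.36 in trm4b-1 in the authors' deposited table. AT4G20000 rose by 0.95 ± 0.14 in WT and by 1.42 ± 0.14 in trm4b-1 in the authors' deposited table. AT2G42140 fell by 1.59 ± 0.32 in WT in the authors' deposited table, and AT2G44340 fell by 1.24 ± 0.24 in trm4b-1.

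The 10 genes downstream of WRKY factors, or used as readouts of WRKY-controlled defence, were chosen with earlier results of these data known. In WT, 6 rose and 1 fell (70% changed, against 17.0% of all genes tested). In trm4b-1, 5 rose and none fell (50% against 9.05%). These shares are thus not independent of the values. CYP71A13 and CYP71A12, near-identical cytochrome P450 genes of indole metabolism that could share reads, had 6.15 ± 0.57 and 5.57 ± 0.27 in WT and 6.34 ± 0.55 and 5.63 ± 0.27 in trm4b-1 in the authors' deposited table. ABCG40, an abscisic acid transporter gene, rose by 1.51 ± 0.35 in WT and 2.09 ± 0.37 in trm4b-1 in the authors' deposited table. PAD3, named as well after its values were seen, encodes the last enzyme of camalexin synthesis and is a direct target of WRKY33. It rose by 1.84 ± 0.18 in WT in the authors' deposited table. With paraquat in trm4b-1 PAD3 was not listed. Between the genotypes it was listed without passing, at 0.67 ± 0.18 on control medium and -0.80 ± 0.16 on paraquat in the authors' deposited table (adjusted p = 0.078 and 0.0837). Its interaction was -1.47 ± 0.24 in the authors' deposited table (adjusted p = 0.0159), while WRKY33 was not listed in the interaction. FRK1, a reporter of the cascade that acts through WRKY22 and WRKY29, rose by 1.81 ± 0.19 in WT and 2.18 ± 0.22 in trm4b-1 in the authors' deposited table. The gene that fell in WT was ACS2, at -0.76 ± 0.20 in the authors' deposited table (adjusted p = 0.0139). It was not listed with paraquat in trm4b-1. ACS6 rose by 1.00 ± 0.15 in WT and 0.54 ± 0.15 in trm4b-1 in the authors' deposited table. Both ACS genes were named after their values were seen.

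In all, 21 members were listed in none of the 5 tables. They were WRKY1, WRKY20 and WRKY44 of group I, WRKY18 and WRKY40 of group IIa, WRKY9, WRKY47 and WRKY61 of group IIb, and WRKY12, WRKY43, WRKY50 and WRKY75 of group IIc. The others were WRKY11, WRKY17, WRKY39 and WRKY74 of group IId, WRKY27 of group IIe, and WRKY30, WRKY38, WRKY41 and WRKY62 of group III. WRKY75, a gene of phosphate starvation and root hair growth, and WRKY30, a gene responsive to reactive oxygen, are thus without a value, which does not show that they did not change. Of the 53 members 11 overlap a gene on the opposite strand in the annotation, WRKY33, WRKY2, WRKY4, WRKY29, WRKY53 and WRKY69 among those with values, and whether reads were counted by strand is not given in the sources used here.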

How the data were processed

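Roots of 12 samples in 4 labelled groups of 3 were sequenced by the authors. Per the submitters' processing notes the tools were Trimmomatic, TopHat and limma, with the build TAIR10 and no versions. How reads were counted and normalized is not given in the sources used here. For each gene with an adjusted p under 0.1 the deposited tables hold 4 values named in the headers, the log fold change (deposited without a base, read as log2), the p-value raw and adjusted, and Storey's q-value. No values per sample are given, so depth is unknown.

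Ranks and adjusted p-values together give 33602 tested genes. Standard errors use 15.3 total degrees of freedom, for which the interaction's variance equals the sum of both paraquat variances over 96 genes. Unlisted contrasts were rebuilt as sums of listed ones, with intervals at 95%. The deposited interaction equalled the differences of the contrasts, so the signs of the 5 comparisons fit one another. A reversal of every sign, or a swap of the genotype labels, would leave that equality unchanged and cannot be seen by it. Called genes have an adjusted p under 0.05. Alternatives were thresholds of 0.01 and 0.1, a log2 change of at least 1, Storey q and Holm adjustment.

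All 53 member names matched the TAIR10.1 annotation. Sequences are from RefSeq's TAIR10.1 genome. Of 38755 introns between deposited TAIR10 exons, 97.7% began with GT and ended with AG in it, so nuclear coordinates share a frame, but gene ends were equal in only 11.5% of genes because the gene models differ. Promoter windows therefore follow RefSeq starts. VQ genes were taken by annotation text. Members and lists were chosen with earlier results of these data known. Named were members changed in a genotype table or the interaction, groups I and IIa, and the 10 largest paraquat changes. Per companion list the 4 changed genes of largest change were named. PAD3, ACS2, ACS6 and 3 listed shoot markers stand beside these. Other members are named to account for each, and other list genes only where unlisted. The tools were scipy 1.17.1, pandas 2.3.3 and numpy 2.4.6 under Python 3.11.15, with matplotlib 3.10.9 for figures.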

Additional observations from a re-analysis of the deposited data

Results flagged for a closer look

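The paraquat response of WRKY48 differed between the genotypes, with an interaction of -0.94 ± 0.19 on the log2 scale in the authors' deposited table (adjusted p = 0.0448). It was picked out because the interaction itself passed the threshold. The value lies close to the threshold and was lost at an adjusted p under 0.01. PAD3, the camalexin gene downstream of WRKY33, was picked out for the same reason, with an interaction of -1.47 ± 0.24 in the authors' deposited table (adjusted p = 0.0159). That call too was lost at an adjusted p under 0.01.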

How the results depend on the processing

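No paired analysis was possible because the tables hold no values per sample, and for the same reason no replicate could be left out. The interaction could not be rebuilt from the paraquat contrasts for WRKY48 or WRKY70, since each is listed in one of them. With a log2 change of at least 1 the counts of changed members were 7 in WT and 4 in trm4b-1 with paraquat, 2 between the genotypes on control medium and 0 in the interaction, and under Holm adjustment they were 3, 1, 1 and 0 in the same order. At an adjusted p under 0.01 the count was 2 between the genotypes on control medium (WRKY25 and WRKY48) and 0 in the interaction, and at an adjusted p under 0.1 these were 12 and 2. With Storey q under 0.05 the interaction had 2. Shares over all genes tested were not worked out for the alternatives, here or for the companion lists below. The counts thus show how calls depend on the threshold and not whether the genes stand apart. The other counts of members kept within 1.5 times of those reported, and WRKY25 was called in both genotype comparisons under each of these alternatives. Over the 4 companion lists together, of 14, 34, 10 and 23 genes, the changed genes were 37 in WT and 15 in trm4b-1 with paraquat. Of the 37 in WT, 18 were shoot markers, all lower. Between the genotypes the changed genes were 2 on control medium and 0 on paraquat, and in the interaction 1. At an adjusted p under 0.01 the changed genes were 24 in WT, 0 between the genotypes on control medium and 0 in the interaction. At 0.1 they were 8, 1 and 5 in both genotype comparisons and the interaction. With a log2 change of at least 1 they were 21 in WT, 9 in trm4b-1 and 1 between the genotypes on control medium. Under Holm adjustment they were 7, 5, 0 and 0 in WT, trm4b-1, the genotype comparison on control medium and the interaction, and with Storey q 4 and 3 in the last 2 of these. With 8 residual degrees of freedom the recovered standard errors would be 0.79 times those given.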
